A study of Drosophila melanogaster with 2 samples.

Results

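The X chromosome of the fly embryo carried 237 reproducible disco-r-eGFP peaks that lie away from promoters, and these are described here. They were selected on presence in the deposited list of peaks that passed the IDR threshold (irreproducible discovery rate, which compares the ranks of regions between replicates) and on position: the peak is on X and its summit is more than 500 bp from every start site of a protein-coding gene. They are 237 of the 431 IDR peaks on X and of 2334 IDR peaks in all, and the other 194 peaks on X lie at promoters. Each was set beside 2781 candidate regions on X, 882 IDR peaks on autosomes and 17259 candidate regions on autosomes that meet the same distance rule, where a candidate is a region of the deposited pooled list that overlaps no IDR peak. Of all regions of the pooled list outside promoters, with IDR peaks and regions that overlap them included, 7.76% of 3056 on X and 4.81% of 18334 on autosomes are IDR peaks. These shares rest on signal, which cannot be told apart from copy number here, and were not tested. Candidates counted per gene below include the IDR peaks.

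The study precipitated chromatin from whole Drosophila melanogaster embryos with an antibody against GFP and sequenced the recovered DNA (ChIP-seq). The single group has 2 samples, biological replicates 2 and 3, each of pooled male and female embryos aged 0 to 24 h from a transgenic line carrying disco-r fused to eGFP. Most labels name disco-r and 1 note names disco, its paralog, as the fused gene; they give no promoter for the transgene and do not say whether the endogenous gene was kept. Chromatin was sonicated to 200 to 800 bp, and no input or mock library was analysed here, so every comparison is between regions of the same embryos.

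disco-r and disco encode zinc-finger transcription factors that act together in the development of head segments and legs. Away from promoters, such factors bind enhancers, which in flies lie mostly in introns and between genes and can act on a start site at a distance. The X chromosome is present as a single copy in males and is upregulated there by the dosage compensation complex, which enters X at GA-rich recognition elements. Copy number and signal cannot be told apart in embryos of mixed sex, so signal levels were not tested between X and autosomes. Shares of regions that pass the IDR threshold, or that rank among the strongest, carry the same limit.

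The word ACAGTG is the sequence feature on which the results below turn, and it is shown first in its setting. It was found in 70 of the 237 peaks within 100 bp of the summit. To show the word and its flanks, the 12 strongest of those peaks are lined up here by 26 bp of dm6 sequence, read on the strand on which the word is ACAGTG, with the word in capitals.
CG4004, chrX:12752386-12752411, plus strand: acatccctgaACAGTGcacaataata
NFAT, chrX:13640587-13640612, minus strand: cgatggacgaACAGTGgtacgaaata
Raf, chrX:2297786-2297811, minus strand: ggcagcaggtACAGTGaacaccgaac
norpA, chrX:4325055-4325080, minus strand: tatctcaagtACAGTGgggccttttt
Zw, chrX:19668674-19668699, minus strand: tcacaagccgACAGTGgtgtttgcct
Tob, chrX:16090303-16090328, plus strand: tgcagaaagtACAGTGgaacctgtct
schlank, chrX:6265569-6265594, minus strand: ctgcatttgcACAGTGcgagataact
Pits, chrX:12579581-12579606, plus strand: cgaaattggcACAGTGggcgttaggt
pico, chrX:19847192-19847217, minus strand: cacgtagaaaACAGTGgcttgcgcag
CG32767, chrX:5083828-5083853, minus strand: gccccatcgcACAGTGggacgcgcag
CG1737, chrX:11351468-11351493, plus strand: tcagtggaatACAGTGggccctggct
Atf3, chrX:1277105-1277130, plus strand: ctggcggagcACAGTGgagttcgatc

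Whole windows of 201 bp, centred on the summit and read on the plus strand, show how the word sits relative to the summit. The NFAT window has the word near each end, facing inwards, with AT-rich sequence between. The Raf window has 1 word, and the window of the strongest peak on X outside promoters has none. That peak lies in the non-coding gene lncRNA:Vinr near CG4004, next to the weaker CG4004 site lined up above. The word is in capitals on either strand, so the minus-strand form reads CACTGT.
NFAT, chrX:13640424-13640624, plus strand: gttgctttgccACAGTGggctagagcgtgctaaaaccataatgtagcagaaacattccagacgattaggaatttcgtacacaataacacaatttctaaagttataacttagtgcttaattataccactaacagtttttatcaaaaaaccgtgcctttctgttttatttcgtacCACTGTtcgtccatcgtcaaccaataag
Raf, chrX:2297624-2297824, plus strand: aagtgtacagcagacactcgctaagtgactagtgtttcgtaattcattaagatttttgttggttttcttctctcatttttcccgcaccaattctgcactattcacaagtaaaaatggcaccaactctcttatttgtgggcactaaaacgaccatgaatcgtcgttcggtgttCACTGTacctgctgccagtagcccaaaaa
CG4004, chrX:12751338-12751538, plus strand: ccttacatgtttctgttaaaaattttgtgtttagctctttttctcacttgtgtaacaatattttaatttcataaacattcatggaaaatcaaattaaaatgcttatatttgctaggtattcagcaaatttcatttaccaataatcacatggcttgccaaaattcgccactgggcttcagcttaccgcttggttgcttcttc

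ACAGTG was more frequent in X peaks than in X candidates, and it was the word with the smallest p of the 1545 6-base words tested. It stood in 29.5% of X peaks (70 of 237, 95% Wilson interval 24.1 to 35.6) and in 12.2% of X candidates (338 of 2781, 11 to 13.4). On autosomes it stood in 20.1% of peaks and 9.47% of candidates. In a logistic regression over all candidates outside promoters, with GC content of the window as a covariate, the odds ratio was 2.87 on X (2.12 to 3.88, n = 237 peaks, adjusted p = 1.4e-08) and 2.26 on autosomes (n = 882 peaks, adjusted p = 2.0e-16). The difference between X and autosomes did not pass (ratio of odds ratios 1.27, 0.896 to 1.80, n = 237 X peaks, adjusted p = 0.993). Here n is the number of peaks in a fit. All p-values compare regions of 1 pooled list and not embryos, neighbouring regions are not independent, and Wilson intervals cover counting error only.

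Of 1545 6-base words tested on X, 8 were called more frequent in peaks (0.518%) and none less frequent, at an adjusted p under 0.05. At an unadjusted p under 0.05 there were 101 more frequent and 20 less frequent words. On autosomes 58 words (3.75%) were called more frequent and 19 less frequent. Of the 8 words called on X, 6 were also called on autosomes, which is 75% of the X calls and 10.3% of the autosomal ones. Most of the other 7 words overlap ACAGTG or its complement end to end. CAGTGG was in 23.2% of X peaks and 15.1% of X candidates (odds ratio 2.33, n = 237, adjusted p = 2.5e-04). ACTGTG was in 21.5% of X peaks and 11.3% of X candidates (odds ratio 2.12, n = 237, adjusted p = 0.0037). CAGTGC was in 22.8% of X peaks and 14% of X candidates (odds ratio 2.05, n = 237, adjusted p = 0.00415). CTGTGC was the weakest, in 20.3% of X peaks and 13.4% of X candidates (odds ratio 1.89, n = 237, adjusted p = 0.043).

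The remaining 3 words share less with it. GTGCAC reads the same on both strands and was in 14.8% of X peaks, against 6.15% of X candidates (odds ratio 2.61, n = 237, adjusted p = 8.8e-04). ACTGCG was in 12.7% of X peaks and 7.34% of X candidates (odds ratio 2.37, n = 237, adjusted p = 0.0109). ACCGCT was in 8.86% of X peaks and 5.21% of X candidates (odds ratio 2.69, n = 237, adjusted p = 0.0138). On autosomes it was in 3.63% of peaks and 5.73% of candidates (odds ratio 0.989, n = 882, adjusted p = 0.985), and the difference between X and autosomes did not pass (n = 237 X peaks, adjusted p = 0.344). No word passed the test of a difference between X and autosomes in the peak effect, where 60 words were higher and 16 lower on X at an unadjusted p under 0.05. The smallest such adjusted p was 0.0879, for ACGAAT. Among peaks alone ACGAAT was the 1 word called between X and autosomes, in 16.5% of X peaks and 6.69% of autosomal peaks (odds ratio 2.75, n = 237, adjusted p = 0.0072). It was also in 8.63% of X candidates, and its odds ratio against those was 1.79 (n = 237, adjusted p = 0.134).

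The count of called words depends on the settings, and the leading word on fewer of them. With replicate 2 left out, so that the strongest candidates of replicate 3 alone stood in for the peaks, 17 words were called, 6 of them shared with the 8. With replicate 3 left out, 9 were called and 6 shared. With 1 region kept per 10 kb the count was 2, ACAGTG among them. With a window of 50 bp on either side it was 1, AGCACT, and ACAGTG was not called (odds ratio 2.00, n = 237, adjusted p = 0.143). ACAGTG was called under the other 13 alternatives run. Of the less frequent words, none of them called, ATAAAT had the smallest p, in 27% of X peaks and 26.3% of X candidates (odds ratio 0.643 with GC content in the fit, n = 237, adjusted p = 0.24). ATATAT followed (0.603, n = 237, adjusted p = 0.358). TATACA and then ATGGAA came next, with odds ratios of 0.606 for the first and 0.58 for the second (n = 237, adjusted p = 0.383 for both).

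Longer forms of the word, examined after ACAGTG had been seen and therefore not tested, were rarer. Their shares in peaks and candidates were further apart as a ratio but closer in percentage points. GCACAGTG was in 24 X peaks (10.1%), in 2.98% of X candidates, in 4.99% of autosomal peaks and in 1.40% of autosomal candidates. CACAGTGG was in 23 X peaks (9.70%), in 2.52% of X candidates, in 3.97% of autosomal peaks and in 1.40% of autosomal candidates. Over 86 words in X peaks with both neighbours in the window, the base just before the word was C in 47.7% and T in 33.7%, and the base before that was G in 54.7%. The base just after the word was G in 50%. These flank shares were taken in X peaks alone, and X candidates often held the same neighbours. CACAGTG was in 37 of the 70 X peaks with ACAGTG and in 148 of the 338 X candidates with it. ACAGTGG was in 38 of those X peaks and 147 of those X candidates.

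The word lay to the sides of the summit more than at it. Between 38 and 112 bp from the summit there were 6.19 words per 100 X peaks and 25 bp of sequence (88 words), against 2.53 within 37 bp (18 words) and 2.32 from 113 to 212 bp (44 words). X candidates showed 1.74, 1.77 and 1.40 words over the same ranges, with no rise at the sides. Autosomal peaks had 3.48 words from 38 to 112 bp, 1.93 within 37 bp, and 138 words in all from 113 to 212 bp. The bins with most words in X peaks were centred 75 bp from the summit, with 18 words on one side and 20 on the other.

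**Figure D1:**
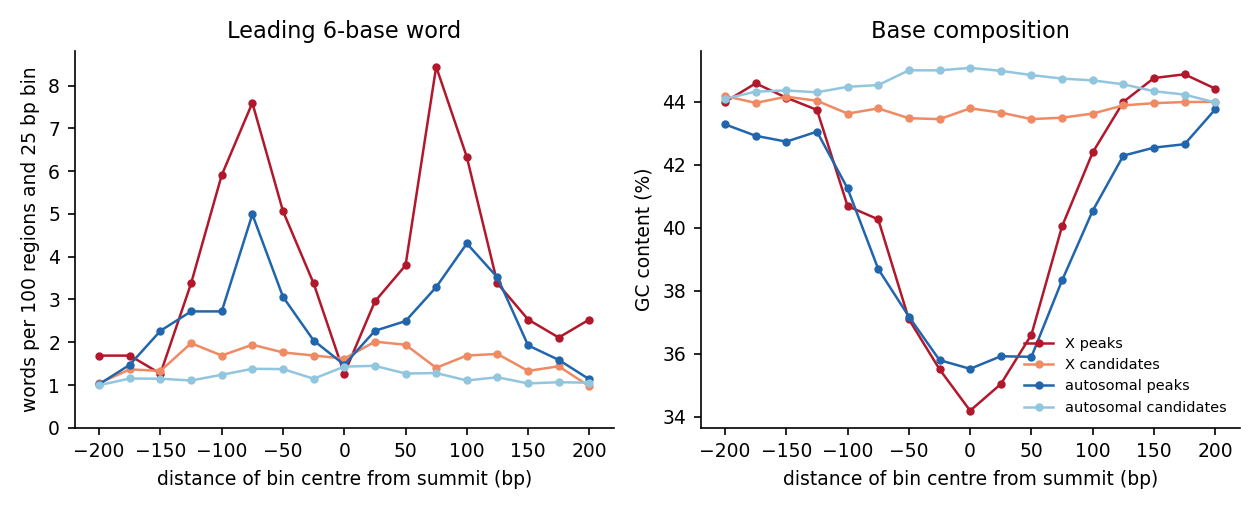
Left, occurrences of the word ACAGTG on either strand per 100 regions in 25 bp bins, by distance of the bin centre from the summit; right, mean GC content in the same bins, on an axis that does not start at 0. Lines are the X peaks, X candidates, autosomal peaks and autosomal candidates; the X peaks have 2 maxima, 75 bp on either side of the summit, and their lowest GC content at the summit.

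The word also had a direction. In the 38 to 112 bp range, 71 of 88 words in X peaks (80.7%, Wilson interval 71.2 to 87.6) read from 5′ to 3′ toward the summit. The share was 62.8% in X candidates (57.1 to 68.1), 69.6% in autosomal peaks (62.6 to 75.8) and 54.3% in autosomal candidates (51.6 to 57.0). In the 12 peaks lined up above, the word reads away from the summit only at CG4004 and schlank. In X peaks the share was 66.7% within 37 bp (12 of 18, 43.7 to 83.7) and 61.4% from 113 to 212 bp (27 of 44, 46.6 to 74.3), with intervals that reach below 50%. In autosomal peaks it was 76.5% within 37 bp (63.2 to 86) and 68.1% from 113 to 212 bp (59.9 to 75.3), with intervals above 50%. Words stood on both sides of the summit in the 38 to 112 bp range in 16 X peaks, and in 14 of them a word on each side read inwards, as at NFAT. The direction was noticed when the sequences were lined up, so these shares are a description and got no test.

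**Figure D2:**
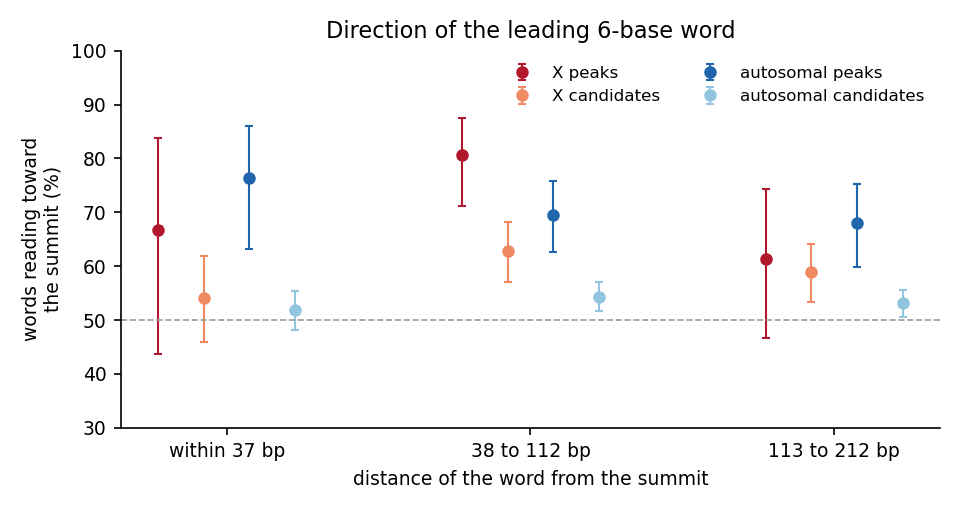
Share of ACAGTG words that read 5′ to 3′ toward the summit, by distance from the summit, in X peaks, X candidates, autosomal peaks and autosomal candidates. Points are shares of words, bars are 95% Wilson intervals, and the dashed line marks 50%, on an axis that starts at 30%; X peaks stand at 80.7% from 38 to 112 bp.

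X peaks with the word had a higher median signal than those without it. Both kinds were mostly intronic, 60 of the 70 with the word and 127 of the 167 without it. The pooled signal ran from 73.1 to 495 with a median of 109 in the 70 with the word, and from 72.5 to 758 with a median of 98.2 in the 167 without it. Of the 60 strongest X peaks 21 held the word (35.0%), and of the 60 weakest 14 did (23.3%). In introns 60 of 187 peaks held it (32.1%), between genes 4 of 29 (13.8%), in non-coding genes 2 of 13 and in 3′ UTRs 4 of 6. Since signal chose the peaks, these values are given with no test. With introns alone compared, the odds ratio of the word on X was 3.29 (n = 187 intronic X peaks, adjusted p = 1.3e-08), an alternative chosen after seeing the data.

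The sequence under X peaks was AT-rich, most of all at the summit. The GC content of the 201 bp window had a median of 36.8% in X peaks (24.4 to 59.7) and 42.3% in X candidates. On autosomes the medians were 36.3% in peaks and 44.8% in candidates. The difference on X was -6.09 ± 0.459 percentage points (SE, least squares with HC3 errors, n = 237, p = 3.6e-40). With introns alone compared, an alternative chosen after seeing the data, it was -3.37 points (n = 187, p = 3.2e-13). Within 37 bp of the summit GC content was 34.9% in X peaks and 43.6% in X candidates, and from 113 to 212 bp it was 44.3% in X peaks and 44% in X candidates. X peaks and autosomal peaks differed by 0.207 points (-0.721 to 1.13, n = 237 X peaks, p = 0.662), and by 1.31 points with the stronger IDR peaks alone (n = 112 X peaks, p = 0.0368). The peak effect was smaller on X than on autosomes by 1.45 points (0.448 to 2.46, n = 237 X peaks, p = 0.00464, 0.0279 when adjusted over the 6 measures of position and composition). Without replicate 2 that difference was 0.737 points (n = 242 X peaks, p = 0.133), and without replicate 3 it was 0.387 points (n = 207 X peaks, p = 0.48).

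None of the 19 words for known factors that could be tested, of 38 listed, was called on X; at an unadjusted p under 0.05 none was more and 2, CACACA and TTTTTTTT, were less frequent. TTTTTTTT was in 17.7% of X peaks and 16.7% of X candidates (odds ratio 0.681 with GC content in the fit, n = 237, adjusted p = 0.329), and it was called less frequent with a window of 50 bp on either side (0.404, n = 237, adjusted p = 0.01). The GAGA factor word GAGAGA was in 12.7% of X peaks (30 of 237), 9.89% of X candidates, 13.8% of autosomal peaks and 8.37% of autosomal candidates. Its odds ratio was 1.32 on X (0.881 to 1.98, n = 237, adjusted p = 0.604) and 1.83 on autosomes (1.49 to 2.24, n = 882, adjusted p = 1.0e-07), and the difference between them did not pass (adjusted p = 0.527). With replicate 2 left out it was called on X (odds ratio 1.80, n = 242, adjusted p = 0.0387). The longer GAGAGAGA, part of the recognition element of the dosage compensation complex, was in 6 X peaks (2.53%), 2.45% of X candidates, 2.15% of autosomal peaks and 1.59% of autosomal candidates. With fewer than 10 X peaks holding it, it was not tested.

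No CA word was called. CACACA was in 14.8% of X peaks and 20.4% of X candidates, against 17.6% of both autosomal peaks and autosomal candidates. Its odds ratio on X was 0.669 (0.46 to 0.971, n = 237, p = 0.0346, adjusted p = 0.329). CACACACA was in 8 X peaks (3.38%) and 7.08% of X candidates. Runs of at least 6 units of any dinucleotide were in 5 X peaks (2.11%), 4.28% of X candidates, 1.70% of autosomal peaks and 1.98% of autosomal candidates, too few to test. Runs of at least 4 units were in 24 X peaks (10.1%), 13.9% of X candidates, 12.7% of autosomal peaks and 9.90% of autosomal candidates (odds ratio 0.648 on X, 0.419 to 1.00, n = 237, p = 0.0521).

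Introns held most of the X peaks. Summits lay in introns of protein-coding genes in 187 of 237 X peaks (78.9%, 73.3 to 83.6) and in 57.1% of X candidates, with an odds ratio of 2.81 (2.04 to 3.87, n = 237, p adjusted over the 3 classes tested, adjusted p = 8.4e-10). With regions in coding exons left out, an alternative chosen after seeing the data, it was 1.75 (n = 237, p = 7.6e-04, not adjusted). On autosomes 65.8% of peaks and 48.7% of candidates were intronic (odds ratio 2.03). Among peaks, introns were more frequent on X than on autosomes (odds ratio 1.95, 1.38 to 2.74, n = 237 X peaks, adjusted p = 1.97e-04). Candidates had the higher share on X too, and the difference in the peak effect did not pass (ratio of odds ratios 1.39, 0.976 to 1.97, n = 237 X peaks, adjusted p = 0.102). It passed with start sites of non-coding genes included in the distance rule (1.51, n = 223 X peaks, adjusted p = 0.031).

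Intergenic summits were 29 of 237 X peaks (12.2%), 17.0% of X candidates, 26.3% of autosomal peaks and 25.5% of autosomal candidates. They were less frequent among X peaks than among autosomal peaks (odds ratio 0.391, 0.258 to 0.592, n = 237 X peaks, adjusted p = 2.9e-05), while the test of X peaks against X candidates did not pass (0.68, n = 237, adjusted p = 0.0895). Non-coding genes held 13 X peaks (5.49%) and 3.45% of X candidates (odds ratio 1.62, n = 237, adjusted p = 0.111). No X peak had its summit in a coding exon, which allows a share of up to 1.27% if 3 counts are taken as the limit and up to 1.60% by the Wilson interval, against 16.3% of X candidates, 0.567% of autosomal peaks and 17.7% of autosomal candidates. UTRs held 2 X peaks at the 5′ end and 6 at the 3′ end. No X peak and 13 X candidates (0.467%) lay in an annotated transposon insertion.

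**Figure D3:**
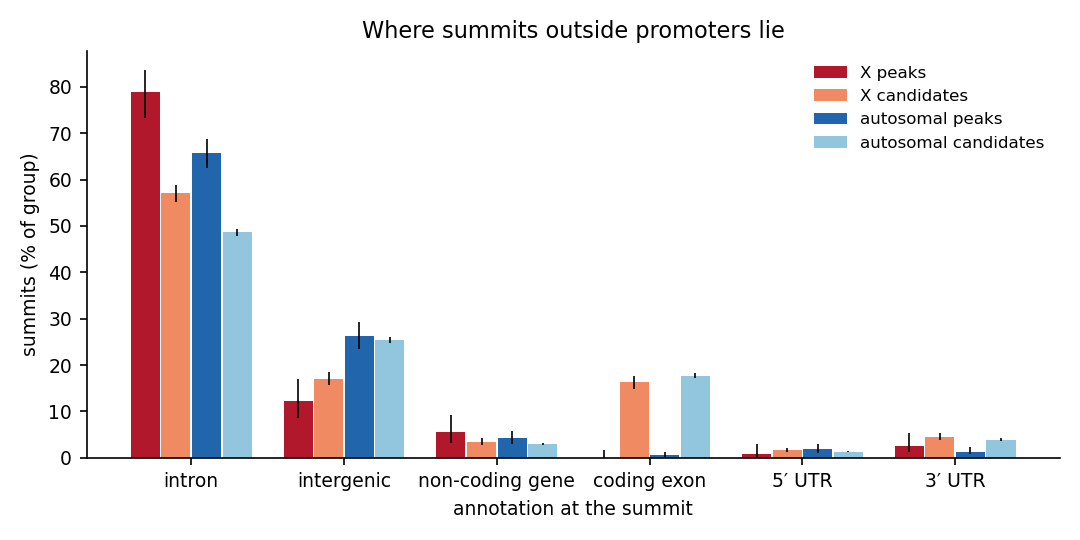
Share of summits in each annotation class, in percent of each group, for X peaks, X candidates, autosomal peaks and autosomal candidates; bars start at 0 and error bars are 95% Wilson intervals. Introns hold 78.9% of X peaks, and coding exons hold none of them.

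First introns, where many fly enhancers lie, held 127 of the 187 intronic X peaks (67.9%) and 59.6% of intronic X candidates (odds ratio 1.44, 1.04 to 1.98, n = 187, p = 0.028). They held 75.5% of intronic autosomal peaks and 58.8% of intronic autosomal candidates (odds ratio 2.16). The peak effect was smaller on X (ratio of odds ratios 0.664, 0.456 to 0.968, n = 187 X peaks, p = 0.0333). Adjusted over the 6 measures of position and composition, neither passed (n = 187 X peaks, adjusted p = 0.052 for X peaks against X candidates and 0.10 for the difference). The host introns were long, with a median of 15830 bp in both X peaks and X candidates.

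Distance to the nearest protein-coding start site had a median of 2413 bp in X peaks and 3228 bp in X candidates, with 43.5% of X peaks and 35.5% of X candidates within 2 kb. The ratio of geometric means was 0.857 (0.743 to 0.989, n = 237, p = 0.0346), and adjusted over the 6 measures it did not pass (n = 237, adjusted p = 0.052). With the disco-r locus and 50 kb around it left out, it was 0.866 (n = 231, p = 0.051). The peaks nearest the limit of 500 bp lay 510, 522 and 532 bp from a start site, and the nearest X peaks left out lay 489, 484 and 483 bp away. Start sites of non-coding genes were within 500 bp of 14 X peaks (5.91%) and of 2.05% of X candidates.

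Signal, the value that the authors' peak caller gave each region on a scale the sources used here do not state, chose the members and is given as a description. In the pooled list it ran from 72.5 to 758 with a median of 101. The weakest members had 72.60, 72.55 and 72.53, and the strongest X candidates just outside the list had 72.45, 72.33 and 71.91. Both replicates listed all 237 regions, with a lowest, median and highest signal of 15.2, 53.0 and 368 in replicate 2 and of 14.5, 51.2 and 398 in replicate 3. On the log2 scale, replicate 3 over replicate 2 was 0.01 at the median of the members, with quartiles of -0.29 and 0.31. Of the 237, 181 (76.4%) were among the 2334 strongest candidates of replicate 2 and 203 (85.7%) among those of replicate 3. For autosomal peaks outside promoters the shares were 81.3% in replicate 2 and 83% in replicate 3. They were not tested against X, where copy number and signal cannot be told apart.

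The replicates stood furthest apart at peaks below the median pooled signal, 3 of which were picked out after their values were seen. A peak in an intron of Arp2, a subunit of the actin-nucleating Arp2/3 complex, had a signal of 15.2 in replicate 2 and 55.6 in replicate 3. One in an intron of fs(1)h, which encodes a BET-family bromodomain protein, had 22.4 in replicate 2 and 75.9 in replicate 3. At prage, the weakest member, the signal was 59.9 in replicate 2 and 14.5 in replicate 3. In all, 5 members were at least 2-fold higher in replicate 3 and 8 at least 2-fold higher in replicate 2.

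**Figure D4:**
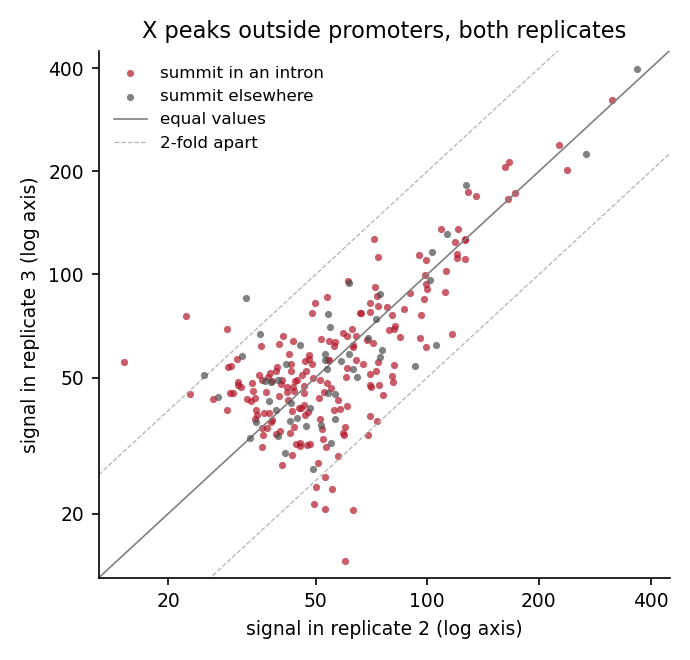
Signal of the 237 X peaks outside promoters in replicate 2 and replicate 3, both on log axes; points are peaks, coloured by whether the summit is in an intron, the solid line marks equal values and the dashed lines a 2-fold difference. Outside the dashed lines lie 5 peaks above and 8 below.

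The strongest members lay at genes of varied function. The first and the third by pooled signal were in lncRNA:Vinr, 5121 and 6019 bp downstream of the start of CG4004 (FBgn0030418). The stronger of them (chrX:12751183-12751587) had a signal of 758 in the pooled list, 368 in replicate 2 and 398 in replicate 3. The second by signal was in the first intron of CG32772, with 637 in the pooled list, 315 in replicate 2 and 324 in replicate 3. Of these 3 windows 1 held ACAGTG, beside a share of 29.5% over all X peaks.

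Several others lay at genes of kinases and a phospholipase. The fourth was in an intron of Tlk (FBgn0283657), the Tousled-like kinase of chromatin assembly, with 227 in replicate 2 and 239 in replicate 3. The sixth was in an intron of Raf (FBgn0003079), the kinase between Ras and MEK in receptor tyrosine kinase signalling, with 166 in replicate 2 and 212 in replicate 3. A site in norpA, the phospholipase C of phototransduction, had 165.5 in replicate 2 and 166.1 in replicate 3. A site in mnb, the fly DYRK1A kinase minibrain, had 126.6 in replicate 2 and 126.4 in replicate 3. The log2 ratio of the replicates was 0.36 at most among these, at Raf.

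The fifth was the NFAT site shown above, in an intron of the fly gene of the NFAT family of transcription factors (FBgn0030505), with 238 in replicate 2 and 202 in replicate 3. Tob, of the antiproliferative BTG/Tob family, had 129 in replicate 2 and 174 in replicate 3, and Pits, a partner of the repressors Ttk69 and Sin3A, had 121 in replicate 2 and 136 in replicate 3. Zw, glucose-6-phosphate dehydrogenase, had 135.5 in replicate 2 and 169 in replicate 3. LPCAT, an acyltransferase of phospholipid remodelling, had 173 in replicate 2 and 172 in replicate 3. schlank, the ceramide synthase, had 126 in replicate 2 and 127 in replicate 3. The other 2 of the 15 were an intron site in CG3726 and an intergenic site near CG3149, with pooled signals of 373 and 309.

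Members were spread over 163 protein-coding genes, which is 17.8% of the 918 genes on X with any candidate outside promoters. Of these, 122 genes had 1 member, 28 had 2 and 13 had 3 or more. The gap between neighbouring members had a median of 39864 bp and ran from 525 to 629889 bp. Joined where neighbours lay within 10 kb, members formed 13 groups of at least 3 that held 51 of the 237 (21.5%). The count was 9 groups with 5 kb and 20 groups with 20 kb.

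With each summit given to 1 gene, Raf held most members, with 9 in introns other than the first, of 20 candidates. Of these, 7 stood in a run of 10071 bp, where the pooled signal was 204, 378, 108, 249, 138, 206 and 74.8 in order along the gene from its 5′ end. All 9 were among the strongest 2334 candidates of replicate 3, and 7 among those of replicate 2. ACAGTG was in 2 of them, where the share over all X peaks was 29.5%. Hr4, a nuclear receptor of the ecdysone response, held 7, with pooled signals of 74.8 to 246, and ACAGTG was in 1.

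CHES-1-like, a forkhead-domain gene, held 6 within 13464 bp, with pooled signals of 80.2 to 201 and ACAGTG in 3. CG1677 held 6, with 86.5 to 143, all in introns of a gene of 124709 bp and all also within lncRNA:CR44357. Its body also holds the members given to Atg5, Dok and CBP, 1 at each. Tlk held 5, all in first introns, with 79.6 to 469. NFAT held 4, with 72.5 to 438. Evi5, a gene of the TBC family of Rab regulators, held 4 within 5962 bp with pooled signals of 93.0 to 122, and ACAGTG was in all 4. The members at Evi5 had 49.2 to 70.2 in replicate 2 and 29.5 to 56.4 in replicate 3. Act5C, a cytoplasmic actin gene, had 3 members, none in its body: they lay 646, 4730 and 8591 bp upstream of its start with pooled signals of 246, 165 and 89.3.

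**Figure D5:**
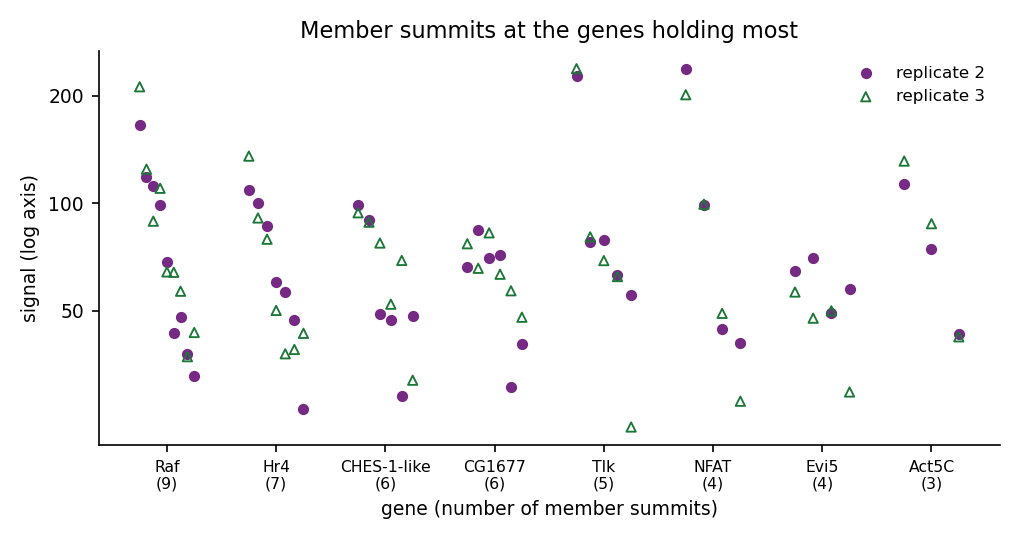
Signal of each member at the 8 genes with most members, on a log axis; filled circles are replicate 2 and open triangles replicate 3, members are ordered within a gene by pooled signal from left to right, and the number of members is in parentheses. Raf has 9 members, and the strongest single sites are at Tlk and NFAT.

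At disco-r (FBgn0285879) itself there were 3 members. One was in the first intron, 8125 bp from the start, with a signal of 51.4 in replicate 2 and 49.2 in replicate 3. The other 2 lay upstream, at 1773 bp with 75.6 in replicate 2 and 59.96 in replicate 3, and at 9706 bp with 61.5 in replicate 2 and 94.4 in replicate 3. ACAGTG was in the farther upstream site only. disco had no member, and the nearest lay 51915 bp away. The line carries a disco-r transgene, and whether these reads come from the endogenous locus or from the transgene cannot be told apart.

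Genes of 9 lists of X-linked genes were looked up, and a count here is over genes with a candidate outside promoters, for which the share on all of X was 17.8%. The lists were chosen with earlier results of these data known, so their shares are a description and got no test. Of patterning transcription factors 7 of 13 held a member, among them Hr4 and CHES-1-like. The next by signal were nej, the histone acetyltransferase CBP, with a pooled signal of 142, and oc, the head gap gene orthodenticle, with 121. Of proneural and neural regulators 3 of 4 did. They were N, the Notch receptor, with 159.8, elav, an RNA-binding protein of neurons, with 129.98, and Sxl, the switch gene of sex determination, with 74.7.

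Of signalling genes 5 of 11 held a member, with Raf first. After it came Bx, an LMO cofactor, with a pooled signal of 122, sgg, the GSK3 kinase, with 107, and upd1, a JAK/STAT ligand, with 85.7. Of chromatin genes 4 of 5 did. They were the Polycomb group genes ph-p, with 160.2, and ph-d, with 100.02, the corepressor gene Smr, with 152, and nej. Of adhesion and muscle fusion genes 1 of 6 did, kirre, an immunoglobulin-domain protein of myoblast fusion. It had 3 members besides the 2 given to CG32795, which lies within its body. Of ion channel and synapse genes 1 of 9 held a member, dnc, the cAMP phosphodiesterase, with 117, and of circadian and cAMP genes 2 of 4 did, norpA and dnc. The dosage compensation genes roX1, roX2 and mof had no candidate outside promoters. The member nearest to mof lay 15417 bp away, the one nearest to roX1 18427 bp and the one nearest to roX2 42684 bp. The lists are short and some genes stand in 2 of them. Hr4 has 25 candidates and nej has 2; the part that gene length and the number of candidates have in these counts was not tested.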

How the data were processed

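The authors deposited, per the notes beside the files, a list of candidate regions for each replicate and for both pooled, each derived from the aligned reads and 1 further shared file, and a list that passed an IDR threshold, on dm6. Each region carries a signal value and a summit set by the authors. Which aligner, caller, signal scale and IDR threshold were used, and how many reads there were, is not given in the sources used here, and depth is unknown. Lists on dm3 were not used. Summits were placed against Ensembl release 115 (BDGP6.54), without its transposon entries as genes, and sequence came from the dm6 assembly.

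Presence of an annotation class or of a word within 100 bp of the summit was fitted by logistic regression (Wald test) on peak, X and their interaction, for words with GC content and its square; GC content and log10 distance were fitted by least squares with HC3 errors. Features held or lacked by fewer than 10 regions in any of the 4 groups were not tested. Benjamini-Hochberg adjustment ran over all features tested, per contrast. The fits were also run on data simulated independently for each region, which cannot test how dependence between neighbouring regions affects the p-values. Python 3.11.15, numpy 2.4.6 and scipy 1.17.1 were used. A summit's gene is the protein-coding gene whose body holds it, the one with the nearest start site where several do. Outside gene bodies it is the gene with the nearest start site. Named genes are disco-r and disco, those at the 15 strongest members, the 8 with most members and up to 4 per list; named words are the 8 higher and 4 lower with the smallest p on X. The members, words and lists were chosen with earlier results of these data known.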

Additional observations from a re-analysis of the deposited data

Results flagged for a closer look

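The peak effect of 3 measures differed between X and autosomes by the interaction term, at an unadjusted p under 0.05. For GC content the peak effect was 1.45 percentage points smaller on X (-6.09 on X, -7.55 on autosomes, n = 237 X peaks, p = 0.00464), and it did not pass without replicate 2 or without replicate 3. For first introns among intronic summits the ratio of odds ratios was 0.664 (1.44 on X, 2.16 on autosomes, n = 187 X peaks, p = 0.0333, 0.10 when adjusted over 6 measures). For dinucleotide runs of at least 4 units it was 0.509 (0.648 on X, 1.27 on autosomes, n = 237 X peaks, p = 0.00606).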

How the results depend on the processing

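Of 151 recomputed tests whose value an alternative could move, 128 kept their direction and their side of the threshold. The intron share did so under 11 alternatives (odds ratio 1.75, with coding exons left out, to 3.15 on X), and GC content on X under 12 (-3.37, in introns only, to -8.37 points). Members numbered 112 with the stronger IDR peaks only. Called 6-base words numbered 17 with those peaks, 4 against stronger candidates, 2 with 1 region per 10 kb, 1 with 50 bp windows, 136 with no GC covariate and 9 to 17 with a replicate left out. Called motifs numbered 1 with 50 bp windows (TTTTTTTT, less frequent) and 0 to 1 with a replicate left out (GAGAGA, more frequent, without replicate 2). Distance did not pass with 1 region per 10 kb (ratio 0.855), a limit of 1000 bp (0.880), stronger candidates (0.912) or without the disco-r region (0.866). First introns did not pass with a limit of 200 bp (odds ratio 1.28) or stronger candidates (1.33), and their interaction did not with 1 region per 10 kb (0.696), stronger peaks (0.667), 1000 bp (0.749) or stronger candidates (0.727). With a replicate left out it was 0.659 to 0.708 and did not pass without replicate 2. The GC interaction did not pass with 50 bp windows (0.757) or with either replicate left out (0.387 to 0.737). The GC difference between X and autosomal peaks reversed with 50 bp windows (-0.603) and with a replicate left out (-0.341 to -0.0663), and passed with stronger peaks (1.31). The distance interaction reversed with stronger peaks (0.921) and ran from 0.985 to 1.14 with a replicate left out; it passed in introns only (1.22, p = 0.035, n = 187 X peaks). The intron interaction passed with non-coding start sites included (1.51). Dinucleotide runs of at least 4 units were in 10.1% of members. Groups of members numbered 20 with 20 kb or a limit of 200 bp and 6 with stronger peaks. The cause was not tested. No paired analysis was possible because there is 1 group. The alternatives for introns only, coding exons, intron length, spacing and word direction were chosen after seeing the data.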
